A study of Mus musculus with 12 samples.

Results

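The genes described here are 49 genes of the cell cycle and of DNA replication: 10 cyclins, kinases and regulators, 14 genes of DNA replication and 25 genes of mitosis. They are a list of names, drawn up with earlier results of these data known, and are described in the lungs of wild-type and Intu-knockout mouse embryos. All 49 were found among the 31078 genes of the count table, and all 49 passed the filter on low counts that 9519 genes passed. No member was called changed between left and right lungs, against 0.0105% of all tested genes in wild type and 0% in the knockout. Between genotypes 1, the kinetochore gene Cenpf, was called higher by 15.2%, against 5.7% of all tested genes called in either direction. That call was lost when the left-right pairs were taken into account (adjusted p = 0.115 in edgeR with left and right counts summed, and 0.156 in limma-voom with the pair as a random effect).

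A dividing cell makes D cyclins in G1, which activate Cdk4 and Cdk6 and free the E2F transcription factors from the retinoblastoma proteins. E2F factors switch on the genes that license and copy DNA, and later a complex with B-Myb and FoxM1 switches on the genes of the spindle, the kinetochore and chromosome segregation. In the embryonic lung, Hedgehog ligand from the airway epithelium acts on the mesenchyme through primary cilia, and D cyclin genes are known targets of Hedgehog signalling in several tissues.

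RNA was sequenced from lungs dissected at embryonic day 12.5. The 4 groups of 3 libraries each were left lung and right lung of wild-type embryos, and left lung and right lung of embryos labelled as Intu knockout. All were on a C57BL/6 background and were bred from carriers of a knockout allele of Intu. INTU belongs to the CPLANE complex, which is needed to build cilia, and the question was how its loss and the side of the body bear on gene expression. Nothing in the labels says what the allele removes from Intu, whether a number stands for 1 embryo, or how many embryos gave RNA to a library.

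The table as analysed here reaches over chromosomes 1 to 7, 10, X and the first stretch of 8, and held 10290103 to 10753386 counts per library. Levels of single genes are CPM, counts scaled to the same total over the tested genes in each library, with TMM scaling factors applied. Summed levels of marker lists are CPM scaled to the same total over all genes in that part of the table, without those factors. Intu itself did not separate the labels, at -0.16 on the log2 scale over both sides (adjusted p = 0.162, edgeR's quasi-likelihood test). Gli1, a direct Hedgehog target, did, at -1.10 (SE 0.05, adjusted p = 1.54e-08 in the same test). Genotypes are therefore given as labelled. Same-numbered left and right libraries of a genotype deviated from their group means together. The test of genotype over both sides counts 12 libraries as independent all the same, so for the genes nearest the threshold the result with left and right counts of a number summed is given beside it.

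The members fall into groups that carry different motifs in their promoters, and these are shown because the role groups are compared below. RefSeq promoter windows of 300 bases (250 before the transcription start and 50 after it, build GRCm38.p6) were at hand for 42 of the 49 members, and Ccne2, Ccnd2, Tpx2, Stmn1, Smc4, Ccna2 and Ccnd1 had no entry. Both strands were searched for an E2F motif (TTTCCCGC, TTTGGCGC, TTTCGCGC or TTTGCCGC), for TTTGAA, the cell cycle genes homology region (CHR) bound by the B-Myb complex, for CCAAT, the box of the factor NF-Y, and for GACCACCC, the motif of the Hedgehog effectors, the GLI factors. A match describes letters and not a bound site. The E2F motif was in 8 of 14 replication promoters (57.1%) and in 1 of 22 mitosis promoters (4.55%), against 2.6% of 27025 genes with a window and 4.48% of 6793 tested ones. Within the 250 bases before the start it was in 5 of 14 (35.7%) and 0 of 22, against 2.16% and 3.74%. The promoters of 3 replication genes show it in the 110 bases printed here, with E2F and CCAAT matches in capitals on the strand of the gene. The start of the Mcm6 window holds a pair of overlapping E2F matches, and the window of Mcm7, which has 2 annotated starts, lies 227 to 118 bases before the one used.
Mcm6 (chr1:128359706-128359815, minus strand): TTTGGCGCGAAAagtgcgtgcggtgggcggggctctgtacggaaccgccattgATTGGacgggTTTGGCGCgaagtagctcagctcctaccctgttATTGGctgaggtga
Orc1 (chr4:108579344-108579453, plus strand): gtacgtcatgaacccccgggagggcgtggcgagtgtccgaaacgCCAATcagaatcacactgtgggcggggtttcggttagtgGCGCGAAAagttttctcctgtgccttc
Mcm7 (chr5:138172001-138172110, minus strand): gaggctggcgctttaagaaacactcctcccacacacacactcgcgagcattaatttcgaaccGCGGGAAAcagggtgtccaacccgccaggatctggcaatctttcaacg

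The CHR was in 16 of 22 mitosis promoters (72.7%) and in 1 of 14 replication promoters (7.14%), against 20.2% of all genes with a window and 14.7% of tested ones. Within the 250 bases before the start it was in 9 of the 22 (40.9%), since in the other 7, among them Cenpf (3 bases after the start) and Aspm (7 bases after), no match lay wholly before the start. CCAAT was in 11 of 14 replication and 17 of 22 mitosis promoters, against 41.1% of all genes. No member window held the GLI motif, which was in 0.932% of all genes, so rare that its absence from 42 windows says little. The D cyclin genes Ccnd1 and Ccnd2 had no window to search. The next 5 windows are all of the 110 bases before the start. A CHR with CCAAT boxes shows in the genes of the mitotic kinase Cdk1, its partner Cks1b, the ubiquitin-conjugating enzyme Ube2c and Cdc20. Cdc20 activates the ubiquitin ligase that Ube2c serves. For Mki67 the printed bases hold a CHR alone. Further up, within the 250 bases before its start, Mki67 has another CHR, at 116 bases, and a CCAAT box. Capitals mark CHR and CCAAT matches.
Cdk1 (chr10:69352913-69353022, minus strand): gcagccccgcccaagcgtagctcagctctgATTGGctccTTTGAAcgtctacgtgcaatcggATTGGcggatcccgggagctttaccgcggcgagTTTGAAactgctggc
Cks1b (chr3:89418292-89418401, minus strand): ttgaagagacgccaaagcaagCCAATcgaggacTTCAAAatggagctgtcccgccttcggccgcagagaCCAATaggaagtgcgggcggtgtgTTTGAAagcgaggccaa
Ube2c (chr2:164769819-164769928, plus strand): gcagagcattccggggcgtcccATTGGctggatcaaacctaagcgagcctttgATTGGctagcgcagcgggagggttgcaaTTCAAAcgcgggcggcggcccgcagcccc
Cdc20 (chr4:118437344-118437453, minus strand): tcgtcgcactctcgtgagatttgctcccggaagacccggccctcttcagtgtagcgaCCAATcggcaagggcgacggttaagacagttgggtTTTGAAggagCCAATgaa
Mki67 (chr7:135716380-135716489, minus strand): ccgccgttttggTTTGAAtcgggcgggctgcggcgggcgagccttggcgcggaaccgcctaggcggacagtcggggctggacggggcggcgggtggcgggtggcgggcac

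Levels of different members are compared here as CPM per kilobase of summed exon length. That length need not be the one of the transcript made, so the order is a rough one. On that scale Stmn1, which encodes a microtubule-destabilising protein that neurons also make in plenty, was the most abundant at 552.5. Cks1b (233.2), the DNA clamp Pcna (208.5), Ube2c (191.8), Cdc20 (179.4) and the kinase gene Plk1 (155.1) came next. The lowest levels per kilobase were those of the kinesin Kif14 (7.40) and the origin recognition gene Orc1 (9.59). Orc1 had at least 300 counts in every library. The spread within groups, as a coefficient of variation of CPM, ran from 1.98% for the spindle factor Tpx2 to 11.3% for Mki67.

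Between genotypes, over both sides, the members were close to level. Of 49, 1 was called higher in knockout-labelled lungs and 0 lower in edgeR's quasi-likelihood test, with p-values adjusted over all genes, against 5.7% of all tested genes called. Log2 differences of the members lay between -0.15 and 0.21, with 29 above 0 and 20 below, and their median was 0.010 beside 0.004 for all tested genes. An unadjusted p under 0.05 was reached by 11 members (22.4%), near the 19.7% of all tested genes. Those 11 were 8 mitosis genes with higher values and 3 others with lower ones (Cks1b, Ccne2 and Mcm7).

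The intervals set a bound on what these libraries could have missed. For 46 of 49 members the 95% confidence interval of the difference lay within 1.25-fold in either direction, the exceptions being Aspm, Cenpf and Mki67, and for all 49 it lay within 1.5-fold. The outermost bounds were 0.848-fold (Mcm7) and 1.28-fold (Mki67). Over all tested genes, many of them less abundant, 56.6% had an interval within 1.25-fold. With left and right counts summed, and in limma-voom with the pair as a random effect, the same 3 members were the ones outside 1.25-fold. In bulk lung RNA, fewer cells of a type and less RNA per cell cannot be told apart, so a level here does not count dividing cells.

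**Figure D1:**
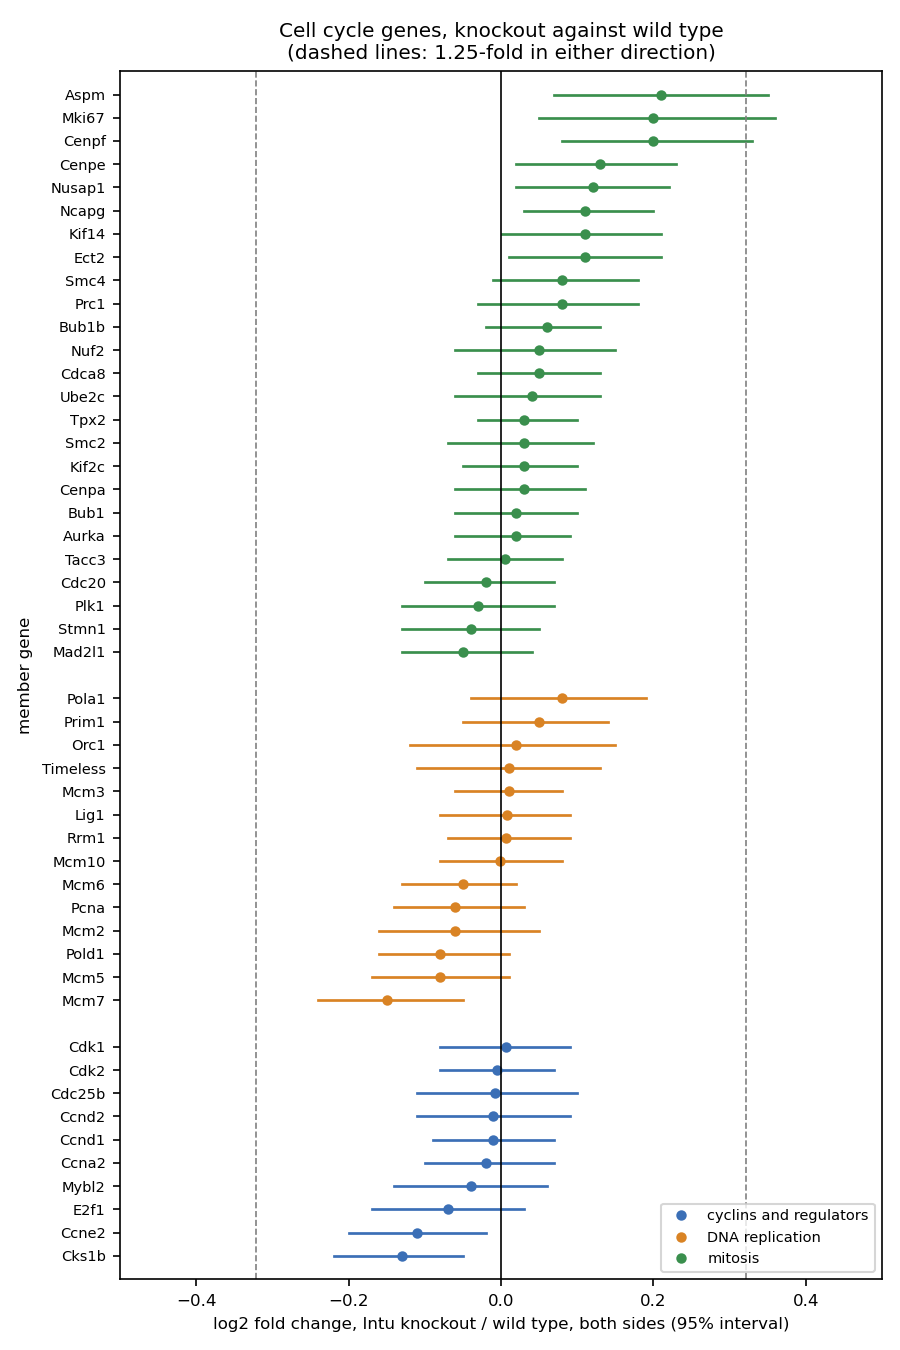
Log2 fold change of each of the 49 members, knockout-labelled against wild-type lungs over both sides (points), with 95% confidence intervals (lines), grouped and coloured by role; dashed lines mark 1.25-fold in either direction. All points lie between -0.15 and 0.21, and the intervals of Aspm, Cenpf and Mki67 cross the right dashed line.

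The cyclins, kinases and regulators showed no call among 10 members, with a median of -0.014 and values from -0.13 to 0.01. Ccnd1, the gene of cyclin D1, stood at 577.3, 541 and 593.6 CPM in left and 568.4, 521.6 and 523.2 in right wild-type lungs. Knockout-labelled lungs gave 576.2, 554.9 and 568.9 CPM on the left and 541.3, 514.4 and 539.8 on the right, and the genotypes overlapped almost fully, at a log2 difference of -0.01 (SE 0.04, adjusted p = 0.891 in edgeR's quasi-likelihood test) and an interval from 0.938-fold to 1.05-fold.

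Ccnd2, the gene of cyclin D2, was as level. Its CPM was 1318, 1175 and 1339 in left and 1206, 1223 and 1299 in right wild-type lungs. Against these stood 1271, 1134 and 1342 in left and 1251, 1249 and 1253 in right knockout-labelled lungs. Both the highest and the lowest of the 12 libraries were knockout-labelled left ones, and the difference was -0.01 (SE 0.05, adjusted p = 0.927 in edgeR's quasi-likelihood test), with an interval from 0.926-fold to 1.06-fold. Gli1 fell in the same libraries, with each knockout-labelled library below every wild-type one.

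Cdk1, the kinase that drives entry into mitosis, gave 329.1, 357.7 and 333.9 CPM in left and 356.8, 335.8 and 323.7 in right wild-type lungs. In knockout-labelled lungs it gave 330.2, 360.1 and 341.4 on the left and 340.8, 336.2 and 337.1 on the right, and the groups overlapped, at 0.006 (SE 0.04) and an interval from 0.949-fold to 1.06-fold. Cdk2, the kinase of S phase, stood at -0.005, cyclin A2 (Ccna2) at -0.02, the phosphatase gene Cdc25b, which activates Cdk1, at -0.008, Mybl2, the gene of B-Myb, at -0.04 and E2f1 at -0.07 on the log2 scale. Ccna2 lies on the chromosome of Intu, 3.96 Mb from it, closer than the other 4 members on chromosome 3 (Ect2, Smc4, Cks1b and Cenpe), and a part of linkage to the knockout allele in their levels was not tested.

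Cks1b, a small protein that binds cyclin-dependent kinases and also helps to degrade the inhibitor p27, had the largest negative difference of this group. Wild-type libraries gave 269.7, 286.8 and 266.5 CPM for left lungs and 259, 284 and 282.9 for right lungs. Knockout-labelled libraries gave 244.7, 252.9 and 257.6 CPM for left lungs and 258, 239.4 and 249.8 for right lungs. The genotypes did not overlap, but the highest knockout-labelled library (258) was next to the lowest wild-type one (259). Its log2 difference was -0.13 (SE 0.04, adjusted p = 0.0555 in edgeR's quasi-likelihood test; 0.0316 in DESeq2; 0.222 in edgeR with left and right counts summed).

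Ccne2, the gene of cyclin E2, was next in order. It stood at 95.3, 95.4 and 93.9 CPM in left and 94.2, 85.4 and 87.8 in right wild-type lungs. The knockout-labelled values were 88.5, 82.9 and 93.1 on the left and 79.6, 85.7 and 81.5 on the right. In 3 of 6 knockout-labelled libraries the level was below every wild-type one, and the difference of -0.11 (SE 0.04) missed the threshold (adjusted p = 0.16, edgeR's quasi-likelihood test). Of its exon bases 17.4% are shared with the neighbour Ints8, and 23.4% of those of Ccnd1 with LTO1, so reads there could have been counted for either gene or dropped.

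Of the other genes of this step, 31 further G1 and S phase regulators were listed, 16 were in the table, all 16 were tested and none was called. Those with the smallest p were Rbl2, of the retinoblastoma family, at 0.13 (adjusted p = 0.176 in edgeR's quasi-likelihood test) and Cdk4 at -0.09 (adjusted p = 0.319). Of 7 inhibitors of cyclin-dependent kinases listed, 5 were in the table and 3 were tested, with a median of 0.030 and values from -0.09 to 0.32. Of these, 1 rose, Cdkn1b, the gene of p27, against 2.08% of all tested genes called higher, and Cdkn1c and Cdkn2c were not called.

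Cdkn1b stood at 99.5, 94 and 105.7 CPM in left and 95.7, 92.5 and 95.2 in right wild-type lungs. It reached 105.8, 132.8 and 127.6 CPM in left and 112.2, 130.7 and 115.8 in right knockout-labelled lungs. Every one of the 6 knockout-labelled libraries was above the highest wild-type one, although the lowest of them (105.8) was next to that one (105.7). The log2 difference was 0.32 (SE 0.06, adjusted p = 0.00594 in edgeR's quasi-likelihood test), 24.5% higher, and it was called whichever of the 12 libraries was left out. With left and right counts summed, edgeR's adjusted p was 0.08, and without the wild-type pair number 2 it was 0.0554. In limma-voom with the pair as a random effect it was 0.0145, so the 2 fits that allow for pairs differed.

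**Figure D2:**
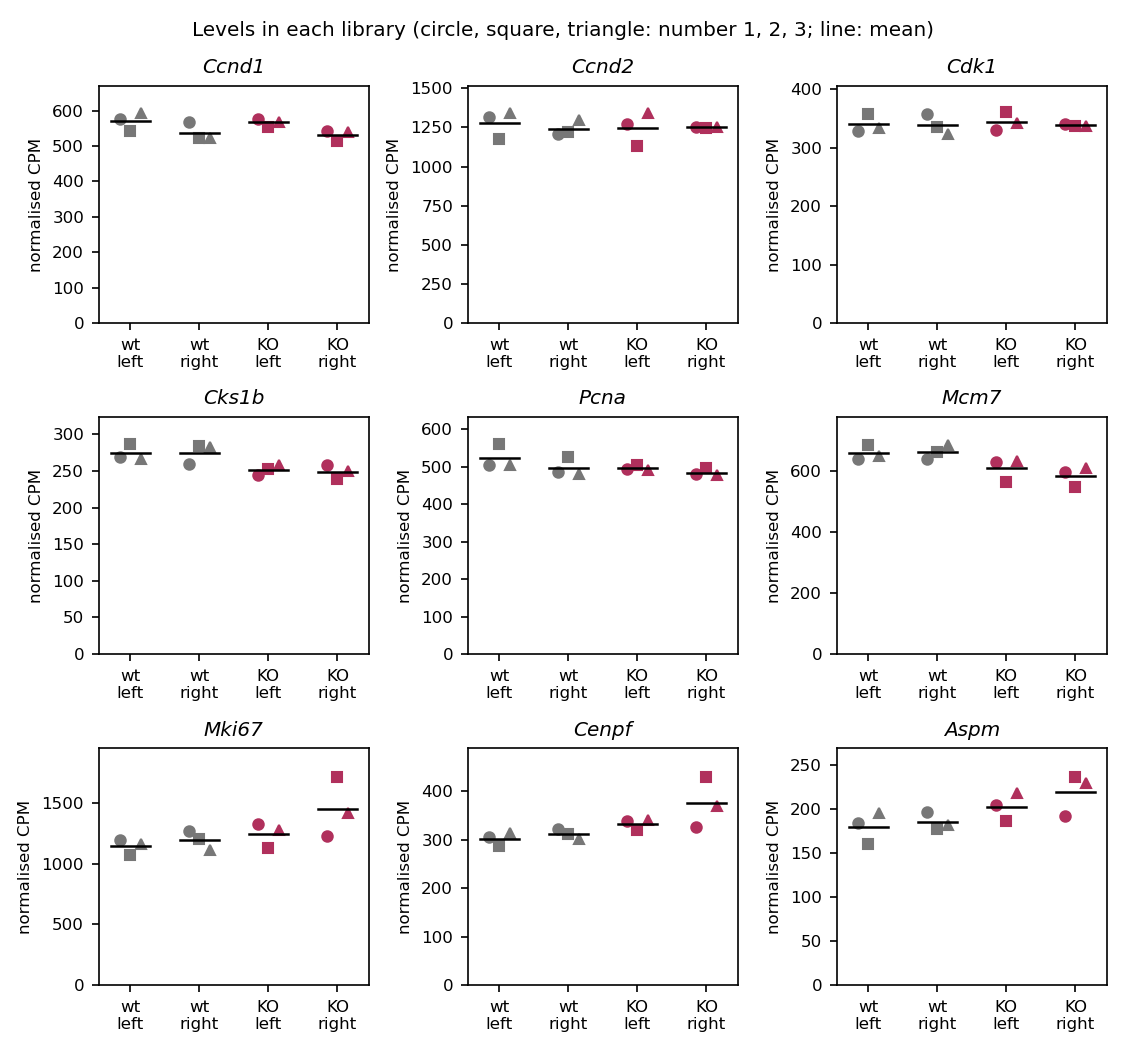
Normalised CPM of 9 members in each of the 12 libraries (points, shaped by number; grey wild type, red knockout-labelled), with the mean of each group of 3 as a line and axes from 0. Ccnd1, Ccnd2 and Cdk1 overlap between genotypes, Cks1b and Mcm7 are lower in every knockout-labelled library, and the right knockout-labelled library number 2 is the highest for Mki67 (1715 CPM), Cenpf (429.9) and Aspm (237).

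Among 14 genes of DNA replication none was called, 7 values were above 0 and 7 below, and the median was 0.003. Pcna, the clamp that holds polymerases on DNA, stood at 505.7, 560.7 and 504.3 CPM in left and 485.5, 526.5 and 479.8 in right wild-type lungs. Knockout-labelled lungs had 493.6, 504.2 and 489.9 CPM on the left and 480, 496.5 and 477 on the right, and the ranges overlapped, with a difference of -0.06 (SE 0.04, adjusted p = 0.444 in edgeR's quasi-likelihood test). Processed copies of the gene, Pcna-ps1 and Pcna-ps2, are annotated, so reads may have been split between them.

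The minichromosome maintenance (MCM) helicase, which unwinds DNA, had 5 of its genes among the members. Mcm7 gave 638.1, 684.4 and 648.1 CPM in left and 637.5, 660.1 and 685.8 in right wild-type lungs. In knockout-labelled lungs it gave 628.2, 562.1 and 633.1 on the left and 595.8, 545.6 and 608.1 on the right. All 6 knockout-labelled libraries were below every wild-type one, and the 2 of number 2 were the lowest. The difference was -0.15 (SE 0.04, adjusted p = 0.0634 in edgeR's quasi-likelihood test; 0.0303 in DESeq2, which called 4 members against 5.58% of all genes; 0.269 in edgeR with left and right counts summed). Mcm5 stood at -0.08, Mcm2 at -0.06, Mcm6 at -0.05 and Mcm3 at 0.01, so 4 of these 5 values were negative and 1 was not. Mcm7 shares 12.6% of its exon bases with other genes, among them Ap4m1 and the microRNA genes Mir25 and Mir93.

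Non-overlapping genotypes were found for 2 of 49 members, Cks1b and Mcm7, both lower, against 4.02% of all tested genes in either direction.

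Pold1, the catalytic subunit of DNA polymerase delta, followed Mcm7 by p. Its level was 304.7, 298.1 and 300.8 CPM in left and 280.3, 299.5 and 275.7 in right wild-type lungs. It was 287.4, 279 and 283.2 CPM in left and 282.2, 249.7 and 286.6 in right knockout-labelled lungs. In left lungs all knockout-labelled values lay below all wild-type ones, without a call on that side (adjusted p = 0.661 in edgeR's quasi-likelihood test). In right lungs all values but the 249.7 of knockout-labelled library number 2 lay in 1 range. Over both sides the difference was -0.08 (SE 0.04, adjusted p = 0.315 in the same test). The polymerase alpha gene Pola1, on chromosome X, stood at 0.08 and the primase gene Prim1, its partner, at 0.05. Origin and fork factors were nearer 0: Orc1 at 0.02, Mcm10 at -0.001 and Timeless at 0.01. The ligase gene Lig1, which joins Okazaki fragments, stood at 0.008, and Rrm1, a subunit of the enzyme that makes deoxyribonucleotides, at 0.007.

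Of 56 other replication genes listed, 26 were in the table and tested, and none was called. Their median was -0.026, and 9 of 26 values were above 0. Asf1b, a histone chaperone, had the smallest p, at -0.14 (adjusted p = 0.104 in edgeR's quasi-likelihood test), followed by the clamp loader subunit Rfc3 at -0.09 (adjusted p = 0.275).

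In the mitosis group 21 of 25 values were above 0, with a median of 0.046, and 1 was called. That gene was Cenpf, a long protein of the kinetochore and the nuclear matrix. Its CPM was 304.7, 286.2 and 313.1 in left and 321.9, 312.8 and 301.7 in right wild-type lungs. It was 338, 320.2 and 340.1 in left and 327, 429.9 and 368.8 in right knockout-labelled lungs. In 5 of 6 knockout-labelled libraries it was above every wild-type one, and library number 2 of the right side stood well above the rest.

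Its log2 difference was 0.20 (SE 0.06), a rise with an adjusted p just under the threshold (0.0487, edgeR's quasi-likelihood test). The call ended in 11 of the 12 fits that left out a library (adjusted p from 0.0522 to 0.107) and held without the right knockout-labelled library number 1 (adjusted p = 0.00736). It also ended with left and right counts summed (adjusted p = 0.115 in edgeR, with 0 members and 1.38% of all genes called) and in limma-voom with the pair as a random effect (adjusted p = 0.156, with 0 members and 3.61% of all genes called). It held in DESeq2 (adjusted p = 0.0154), and in edgeR without the filter on low counts, where 4 members and 5.77% of all genes were called.

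Aspm and Mki67 had differences of the same size without a call. Aspm, which organises the spindle poles and is needed for symmetric division of neural progenitors, stood at 184.9, 160.1 and 195.4 CPM in left and 197.1, 177.2 and 182.1 in right wild-type lungs. Knockout-labelled lungs had 204.7, 186.2 and 218 CPM on the left and 191.9, 237 and 229.6 on the right, with 4 of 6 above every wild-type library. The difference was 0.21 (SE 0.06, adjusted p = 0.0793 in edgeR's quasi-likelihood test; 0.0417 in DESeq2; 0.192 in edgeR with left and right counts summed; 0.191 in limma-voom with the pair as a random effect).

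Mki67, the gene of the Ki-67 protein that coats mitotic chromosomes and is widely stained to count dividing cells, gave 1199, 1071 and 1162 CPM in left and 1268, 1205 and 1115 in right wild-type lungs. It gave 1327, 1134 and 1283 CPM in left and 1227, 1715 and 1420 in right knockout-labelled lungs. Here too 4 of 6 were above every wild-type library, and the right library number 2 was the highest. The difference was 0.20 (SE 0.07, adjusted p = 0.121 in edgeR's quasi-likelihood test; 0.0672 in DESeq2; 0.136 in edgeR with left and right counts summed).

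The other mitosis genes were not called. The kinetochore motor Cenpe stood at 0.13 and Nusap1, which binds spindle microtubules, at 0.12. Kif14 and Ect2, both needed for cytokinesis, and the condensin gene Ncapg stood at 0.11 each. The condensin core genes Smc4 and Smc2 stood at 0.08 and 0.03, and the midzone protein gene Prc1 at 0.08.

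Bub1b and Bub1, of the spindle checkpoint, stood at 0.06 and 0.02, the kinetochore gene Nuf2 at 0.05 and Mad2l1, which restrains Cdc20, at -0.05. Ube2c and Cdc20, which together drive the destruction of cyclin B and securin, stood at 0.04 and -0.02. The kinase genes Aurka and Plk1 stood at 0.02 and -0.03, and Cdca8, of the chromosomal passenger complex, at 0.05. The spindle factors Tpx2 and Tacc3 stood at 0.03 and 0.005, the centromeric histone gene Cenpa and the kinesin Kif2c at 0.03 each, and Stmn1 at -0.04. The adjusted p-values of the genes from Bub1b to Stmn1 ran from 0.415 (Bub1b) to 0.963 (Tacc3) in edgeR's quasi-likelihood test.

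Summed exon length, which need not be the length of the transcript made, moved with these differences. Across the 25 mitosis genes the log2 difference between genotypes had a Spearman correlation of 0.672 with the summed exon length, and across all 49 members one of 0.494; genes are not independent, the points share the same 12 libraries, and no p is given. The longest member, Cenpf, has 15433 bases of exon, Aspm 11590 and Mki67 10061. The 10 members over 8 kb had a median of 0.091, and the 3 members up to 2 kb one of -0.042. Among 4839 other genes at least as abundant as the least abundant member, the correlation was 0.158, and the 1157 of them over 8 kb had a median of 0.020. Across the 14 replication genes the Spearman correlation was 0.002. The values depended on the measure. With log2 exon length, the Pearson correlation was 0.740 for mitosis genes and 0.594 for all members. It was 0.297 for replication genes and 0.027 for the 4839 other genes.

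Libraries also differed in how long genes stood as a class. The median deviation of those 1157 other long genes from their 12-library mean was highest in the right knockout-labelled library number 2 (0.068 on the log2 scale), the one with the highest Cenpf, Aspm and Mki67. It was lowest in the wild-type left library number 2 (-0.067) and the knockout-labelled left library number 2 (-0.058). With a trend on exon length removed in each library, Cenpf stood at 0.17 (adjusted p = 0.0301 in edgeR), Aspm at 0.19 (adjusted p = 0.0475) and Cks1b at -0.16 (adjusted p = 0.0279), and 3 of 49 members were called, against 6.11% of all tested genes. Mcm7 then stood at -0.14 (adjusted p = 0.0718).

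**Figure D3:**
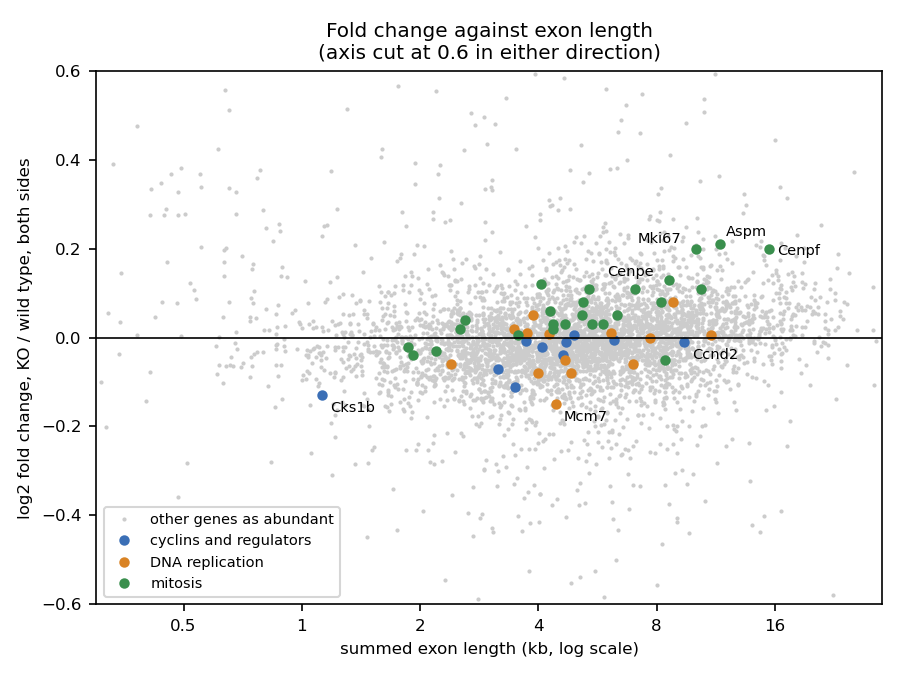
Log2 fold change of knockout-labelled against wild-type lungs, both sides, against summed exon length in kilobases on a log axis, for the members (coloured by role) and for other genes at least as abundant (grey; the vertical axis is cut at 0.6 in either direction). Of the 10 members over 8 kb, Aspm, Mki67, Cenpf and Cenpe lie at 0.13 to 0.21, Kif14 at 0.11, Prc1 and Pola1 at 0.08 each, Rrm1 at 0.007, Ccnd2 at -0.01 and Mad2l1 at -0.05.

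By library, the median deviation of the 25 mitosis genes from their 12-library means ran from -0.051 to -0.008 on the log2 scale in the 6 wild-type libraries and from -0.021 to 0.083 in the 6 knockout-labelled ones. The genotypes overlapped, since the knockout-labelled libraries of number 1 lay at -0.021 (left) and -0.016 (right). The 14 replication genes ran from -0.010 to 0.050 in wild type and from -0.093 to 0.017 in knockout-labelled libraries, the lowest being the left library number 2. Over all 49 members the ranges were -0.028 to 0.013 and -0.025 to 0.040. The 3 role groups thus did not move as 1 block across libraries: the left knockout-labelled library number 2 had the lowest replication median and a mitosis median of 0.011.

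**Figure D4:**
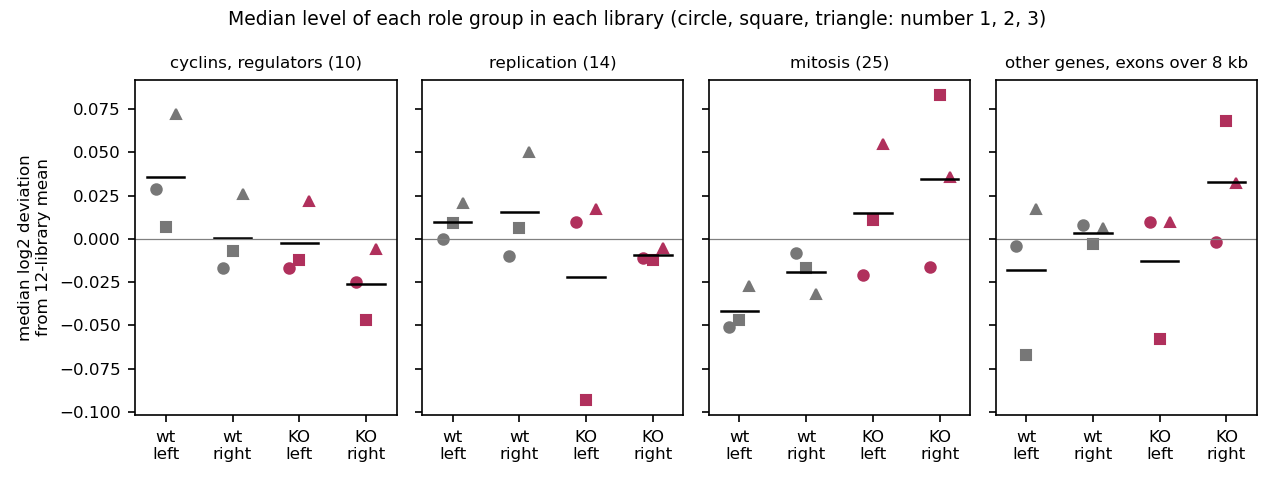
Median log2 deviation from the 12-library mean in each library (points, shaped by number; lines are group means) for the 3 role groups and for 1157 other genes with over 8 kb of exon. The knockout-labelled right library number 2 is highest for mitosis genes (0.083) and for other long genes (0.068), and the knockout-labelled left library number 2 is lowest for replication genes (-0.093).

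Grouped by promoter motif, the 9 members with an E2F motif and no CHR had a median log2 difference of -0.005 between genotypes, and the 17 with a CHR and no E2F motif one of 0.036. The 14 with neither stood at 0.006. The 2 with both, Cdk1 and Ncapg, stood at 0.006 and 0.11. The CHR group spanned -0.13 (Cks1b) to 0.21 (Aspm), a wider range than the gap between group medians.

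Of 93 other mitosis genes listed, 43 were in the table and tested, and none was called. Their median was 0.024 and 27 of 43 values were above 0. The condensin gene Ncapd2 (0.19, adjusted p = 0.127 in edgeR's quasi-likelihood test) and Ckap5, a microtubule polymerase (0.11, adjusted p = 0.148), had the smallest p.

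Several lists of cell type markers differed by genotype in the same libraries. Summed levels of the smooth muscle list (5 of 12 genes in the table, all 5 called lower, against 3.62% of all tested genes) ran from 637.4 to 772.4 CPM in wild type and from 283.2 to 334.3 in knockout-labelled lungs. The myeloid list (11 of 15 in the table, 6 called lower) ran from 242.7 to 294 against 179.7 to 223.3. The list for neurons and neural crest (10 of 15, 7 called lower) ran from 47 to 79.4 against 36.9 to 47.2. Its ranges just overlapped, with wild-type left library number 2 at 47 and knockout-labelled left library number 1 at 47.2. The lung mesenchyme list (6 of 11, 1 called higher) ran from 6301 to 6901 CPM in wild type and from 6966 to 7960 in knockout-labelled lungs. The cardiac list (6 of 11 in the table, 5 tested, 1 called higher and 1 lower) ran from 55.1 to 87.6 CPM in wild type and from 22.6 to 42.6 in knockout-labelled lungs. Of its 5 tested genes, 3 nonetheless had values above 0, with a median log2 difference of 0.162 over both sides. Lung epithelium markers (7 of 17 in the table, 1 called higher) overlapped, at 386.5 to 441.4 against 399.7 to 471.7 CPM. Erythroid ones (11 of 15, none called) also overlapped between genotypes, at 2248 to 3568 against 2553 to 3932. By side, wild-type erythroid sums were 3038 to 3568 on the left and 2248 to 2515 on the right. In knockout-labelled lungs they were 2991 to 3932 and 2553 to 3355. All 11 erythroid genes had higher values on the left in each genotype, with none called. Endothelium markers (6 of 10, 1 called higher) overlapped at 840.3 to 927.4 against 818.2 to 1102 CPM, and mesothelium markers (3 of 6, 1 called lower) at 260.5 to 338.9 against 236.3 to 312.2. No marker in the table was at 0 over all libraries, liver markers reached 87.2 CPM in the left knockout-labelled library number 1 and at most 9.76 elsewhere, and Xist ran from 1271 to 2269 CPM in wild type against 107.2 to 985.4. The part of cell composition, and of the sex of the embryos, in the members' levels was not tested.

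Each side was also compared alone, with the same wild-type and knockout-labelled libraries as above. In left lungs 0 of 49 members were called, against 1.18% of all tested genes, and their median was 0.026 with values from -0.12 to 0.17. Unadjusted p-values under 0.05 were reached by 3 of the 49, against 10.9% of all tested genes. In right lungs 0 were called, against 1.51%, with a median of -0.003 and values from -0.18 to 0.28, and 6 of the 49 had an unadjusted p under 0.05, against 13.5% of all tested genes. DESeq2 called 0 on either side. The interval lay within 1.25-fold for 47 members in left lungs and for 45 in right lungs.

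Some members stood further from 0 on the right. Mki67 stood at 0.12 on the left and 0.28 on the right, Cenpf at 0.14 and 0.27, Cenpe at 0.05 and 0.20 and E2f1 at -0.01 and -0.13. The difference between sides was tested as an interaction of genotype and side, and 0 of 49 members were called, with 0 at an unadjusted p under 0.05 (0 of all tested genes called, 1.3% at an unadjusted p under 0.05) in edgeR, and 0 in DESeq2. The interaction of Mki67 was -0.16 (SE 0.14, adjusted p = 1 in edgeR's quasi-likelihood test), with an interval from -0.46 to 0.15, so a moderate difference in its response between the sides was not detectable with 3 libraries a group.

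Left and right lungs differ in lobe number and in growth, which gives a second comparison for these genes. In wild type 0 of 49 members were called, against 0.0105% of all tested genes, with a median of -0.016 and values from -0.12 to 0.09, left against right. All 49 intervals lay within 1.25-fold. Mcm10, a factor that starts the replisome, was the 1 member with an unadjusted p under 0.05 (2.62% of all tested genes had one), lower on the left by a value of -0.12 (SE 0.05). Its levels were 145.1, 148.1 and 155.6 CPM on the left and 163, 155.2 and 170.9 on the right, with 1 left library above the lowest right one. Ccnd1 stood at 0.09 in wild type and at 0.09 in knockout-labelled lungs, left against right, with unadjusted p-values of 0.126 and 0.104 in edgeR's quasi-likelihood test.

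In knockout-labelled lungs 0 members were called between sides, against 0% of all tested genes (3.76% at an unadjusted p under 0.05), with a median of 0.005. Unadjusted p-values under 0.05 were reached by 4 members, E2f1 with a higher value on the left (0.15) and Mki67 (-0.22), Cenpf (-0.17) and Cenpe (-0.15) with lower ones. The last 3 were highest in the right library number 2. DESeq2 also called 0 members in either comparison of sides. With each left-right pair as a block, 63 of 9519 tested genes were called in wild type and 43 of 9519 in knockout-labelled lungs. Of the 49 members 0 were called, and at such low shares few or none would be expected. Here exon length had a Spearman correlation of -0.428 with the left-right difference across the members and of -0.427 across the 4839 other genes, so long members and other long genes had lower values on the left alike.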

How the data were processed

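Total RNA of 12 lung libraries was sequenced. The authors deposited whole-number read counts for each gene, made with FastQC, HISAT2, featureCounts and GRCm38, per the submitters' processing notes; the sources used here give neither versions nor a strand setting. Of the table, 31078 complete rows were used (1 incomplete row was left out) and 30915 IDs (99.5%) matched a symbol. Totals of 10290103 to 10753386 counts are of this part of the table only.

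Genes passed filterByExpr (minimum count 10, minimum total 15) if abundant enough; 9519 did. One edgeR 4.0.16 fit (glmQLFit, glmQLFTest, TMM factors 0.992 to 1.01, R 4.3.3) covered 4 groups with 8 residual degrees of freedom. Genotype, side and interaction contrasts were adjusted by Benjamini-Hochberg over all tested genes (threshold 0.05). Alternatives used limma 3.58.1, DESeq2 1.42.0, other scalings and filters, and omitted libraries. SE is the test's standard error. The procedure was tested on simulated data.

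The members and lists were chosen with earlier results of these data known. Values per library are given for called members, Ccnd1, Ccnd2, Mki67, Pcna, Cdk1 and the 2 members of each role with the smallest p between genotypes; of other lists, up to 4 called genes or the 2 with the smallest p are named. Mcm10 and Cdkn1b per library, and the removal of length trends and of pairs, were added after seeing the data.

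Deviations of same-numbered left and right libraries of a genotype correlated at 0.253 to 0.486 in 6 pairs, so they were taken as pairs. Other numbers gave -0.393 to -0.00284. Deviations from a group mean cancel within the group, so positive same-number values make those of other numbers negative on balance. Same numbers across genotypes gave -0.121 to -0.0416 and were not taken as pairs. The pairing is a hint from the data. No 2 replicates agreed within sampling noise (chi-square over degrees of freedom 4.7 to 14.1). No label calls them separate embryos, and the p-values cover only the spread among these libraries, possibly a technical one.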

Additional observations from a re-analysis of the deposited data

How the results depend on the processing

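Cenpf kept its positive sign in every fit run. Between genotypes over both sides, 1 member was called. Without the filter on low counts 4 were called, and in DESeq2 also 4 (Aspm, Cenpf, Cks1b and Mcm7, with 5.58% of genes). In limma-voom 0 members were called (532 of 9519 genes), and 0 with a replicate block on the numbers (652 of 9519 genes). The count was also 0 with the pair as a random effect and with left and right summed. When a library was left out, it was 0 to 3. With a left-right pair left out, the count was 3 without the knockout-labelled pair number 1 and 0 without the knockout-labelled pair number 3 or any of the 3 wild-type pairs, and it was 3 with the length trend removed; the cause was not tested. In right lungs, where 0 were called, 3 were called without the filter, 0 to 1 with a library left out (1, Cenpf, without the right knockout-labelled library number 1) and 2 without the knockout-labelled pair number 1. The replicate block changed no other call of members. The numbers do not pair the genotypes, so that block is a fit by number alone.

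The call of Cdkn1b was lost with summed counts (adjusted p = 0.08 in edgeR) and without the wild-type pair number 2 (0.0554). It was kept with the pair as a random effect (adjusted p = 0.0145 in limma-voom). The median difference of the 49 members moved by less than the spread between replicates under every alternative run, but several medians close to 0 changed sign, also between sides. Among them that of the replication genes over both sides (0.003) ran from -0.032 to 0.018 and on the left (0.010) from -0.031 to 0.020, and that of all members on the right (-0.003) from -0.010 to 0.013. The mitosis median stayed above 0 between genotypes, at 0.033 to 0.067 over both sides. Over all genes, the 543 calls between genotypes became 141 with summed counts (of 10203 tested), 344 with the pair as a random effect, 1084 without the filter, 354 without the wild-type right library number 2, 331 without the knockout-labelled pair number 3 and 263 without the wild-type pair number 2. Without the filter, left gave 510 and right 595, against 112 and 144; DESeq2 gave 191 and 222 and the replicate block 177 on the left. Fits of the left groups alone gave 49. With a library or pair left out, left ranged from 45 (without the wild-type left library number 1, and without the wild-type pair number 1) to 115, and right from 48 (without the knockout-labelled pair number 3) to 168; right also fell to 68 without the right wild-type library number 2 or the right knockout-labelled library number 3 and to 66 without the wild-type pair number 2, and left to 58 and 59 without the knockout-labelled pair number 3 and the wild-type pair number 2. Between sides, no filter gave 46 and 31, the random effect 13 and 2 and DESeq2 10 and 3 genes, against 1 in wild type and 0 in the knockout. The least abundant member, Orc1, had 300 counts or more in each library, and counting error is part of its spread within groups (6.71%).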
